A study of Mus musculus with 6 samples.

Results

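Of the 54838 genes in the deposited count table, 9 encode the enzymes of serine synthesis and of the folate-bound one-carbon pathway: *Phgdh*, *Psat1*, *Psph*, *Shmt1*, *Shmt2*, *Mthfd1*, *Mthfd1l*, *Mthfd2* and *Aldh1l2*. They were listed by name for their place in the pathway, with no threshold on a measured value, at a time when earlier results of these data were known. RNA sequencing compared 3 AG636-treated with 3 vehicle-treated mice bearing I1DN leukemia, and the comparison asked which transcripts change in leukemic cells when pyrimidine synthesis is inhibited. Both groups carried the same murine AML, genotype IDH1R132H; DNMT3AR882H; NrasG12D on a C57BL/6 background, which the study made by co-transducing fetal liver hematopoietic progenitors with the mutant genes. All recipients were sublethally irradiated Ptprca mice. AG636, an inhibitor of the pyrimidine synthesis enzyme DHODH, was given at 100 mg/kg by oral gavage b.i.d., and the other group received vehicle. The age of the mice, and whether a given library came from bone marrow or spleen, are not given in the sources used here, and the study's own descriptions differ on the length of treatment. The sorted cells, a cKit-positive fraction with little or no CD11b, are described as enriched for leukemia stem cells. The recipients received frozen cells of a moribund mouse, so the 6 mice may share 1 leukemia, and p-values here measure the spread between mice.

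Serine synthesis starts from the glycolytic intermediate 3-phosphoglycerate, which Phgdh oxidizes, Psat1 transaminates and Psph dephosphorylates to serine. Serine hydroxymethyltransferases then split serine into glycine and a one-carbon unit that is carried on tetrahydrofolate, through Shmt1 in the cytosol and Shmt2 in the mitochondrion. Mthfd2 and Mthfd1l take the mitochondrial unit on to formate, which leaves the organelle, and Mthfd1 loads it onto folate again in the cytosol. These units build purine rings, methylate deoxyuridylate to thymidylate and feed methionine synthesis, so the pathway stands next to pyrimidine nucleotide synthesis in proliferating cells. Mthfd2 and Shmt2 are well known for their high expression in dividing and cancerous cells, AML among them.

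As scaled counts, transcripts of 7 genes of this pathway were lower with AG636. They include *Phgdh*, of the first step of serine synthesis, and *Mthfd1*, whose product returns formate to folate. Of the 9 genes, 8 had enough reads to be tested, and 7 of these fell with AG636, where 11.0% of all 11092 genes tested fell. edgeR called 0 of the 8 higher, against 10.3% of all genes tested, and DESeq2 and limma-voom also called 7 lower and 0 higher. At an unadjusted p under 0.05 in the edgeR fit, 8 were lower and 0 higher, where 18.4% of all genes tested were lower and 18.7% higher. The gene that did not pass was *Psph*, and the untested one was *Aldh1l2*. A gene is called here when its Benjamini-Hochberg adjusted p over all genes tested was under 0.05 in edgeR's quasi-likelihood test. Log2 fold changes of the 8 ran from -1.28 to -0.62 with a median of -0.83, beside a median of 0.03 over all genes tested. In all 8, the highest AG636 library lay below the lowest vehicle library, an arrangement seen in 20.6% of all genes tested. The 8 genes also had at least 10 counts in each of the 6 libraries, so none was tested only because of its level in one group. Scaling by library size alone moved the split over all genes from 1222 lower and 1146 higher to 913 lower and 1483 higher, and the same 7 genes of the pathway were called lower.

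**Figure D1:**
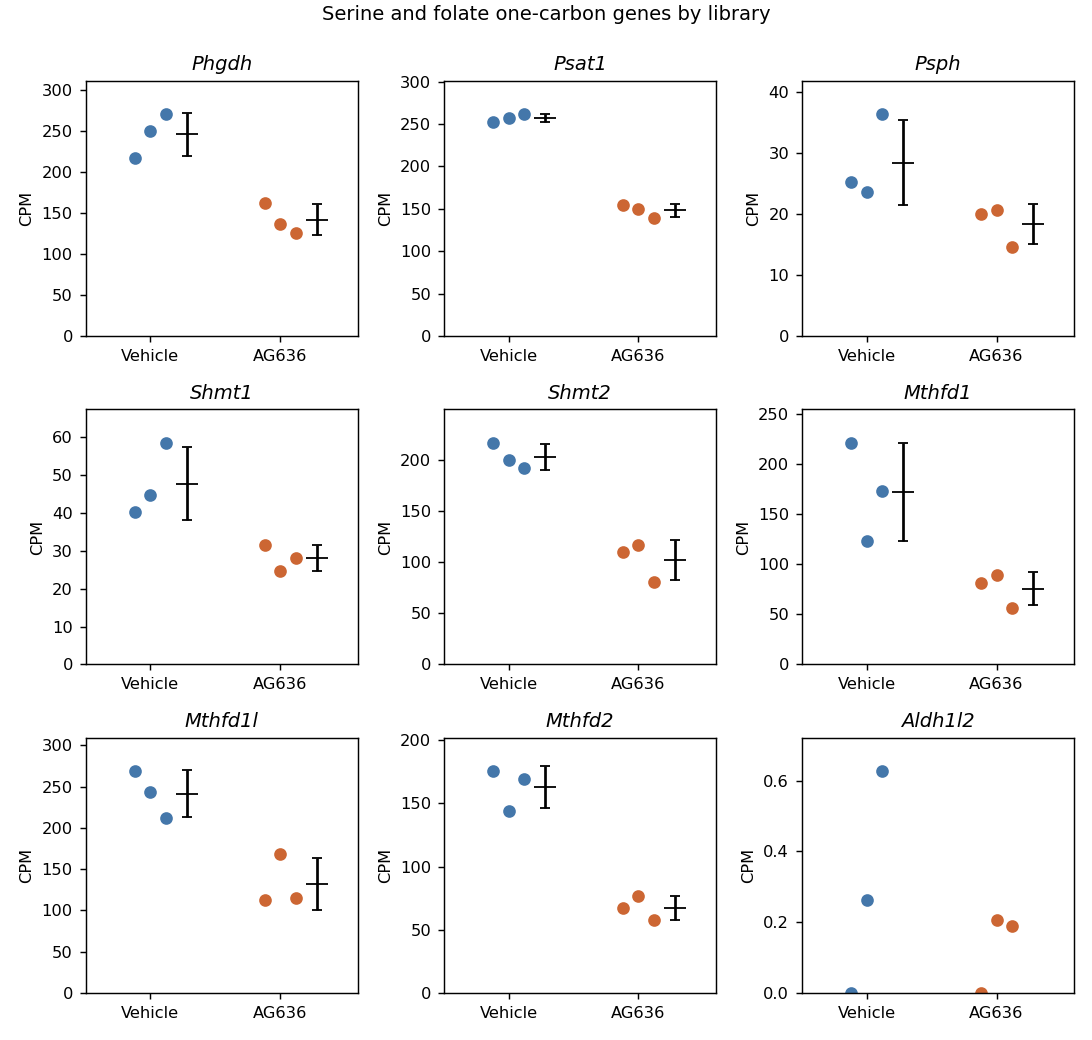
Level in CPM (counts per 1000000 scaled counts, linear axis from 0) of the 9 genes in each library, one panel per gene, with vehicle and AG636 libraries as points and the mean with its SD as a bar (n = 3 mice per group, no bar for Aldh1l2). In 8 panels every AG636 point lies below every vehicle point, and in the panel of Aldh1l2 no library holds more than 3 counts.

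The library kit primes from the 3′ end of transcripts, so a count stands for a captured end and does not grow with transcript length. Totals ran from 4634963 to 7906589 counts per library, and a floor of 3 counts corresponds to between 0.392 and 0.637 CPM. CPM are counts per 1000000 of the library size after scaling by trimmed mean of M-values (TMM). The summed CPM of mature neutrophil markers lay between 1042 and 2384 in the vehicle libraries and between 2908 and 5930 in the AG636 libraries, and 7 of these 9 markers rose. Monocyte and macrophage markers summed to between 163 and 271 CPM with vehicle and between 361 and 873 CPM with AG636, and 4 of 7 rose by edgeR and 2 by limma-voom. Immature myeloid markers overlapped, from 2254 to 4488 CPM with vehicle and from 1766 to 4442 CPM with AG636, with 1 of 7 tested markers called, *Ptprc*, which rose. *Ptprc* encodes CD45, which is not confined to immature cells: the study also used it to mark Ly6G-positive myeloid cells. *Kit*, used for the sort, had a log2 fold change of 0.15 (edgeR adjusted p = 0.55). *Itgam*, the gene of the other sort marker CD11b, is counted among the neutrophil markers and rose. It had 12.1, 18.3 and 27.0 CPM with vehicle and 60.1, 31.3 and 41.2 CPM with AG636 (log2 fold change 1.215, edgeR adjusted p = 0.0219). Erythroid markers overlapped, with 2 of 8 called, both lower. Over all genes tested, edgeR called 11.0% lower and 10.3% higher, the shares to set beside these marker counts. B cell markers summed to at most 19.3 CPM, T and NK cell markers to at most 4.54 CPM and stromal and endothelial markers to at most 2.14 CPM in any library, and *Cdh5* had 0 counts in all. The part of the neutrophil and monocyte RNA in the lower levels of the pathway's genes was not tested. In sorted bulk RNA, fewer cells of a type and less RNA per cell cannot be told apart.

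*Phgdh* and *Psat1*, the genes of the first steps of serine synthesis, both fell by a like amount, and *Psph* did not pass the test. *Phgdh* (ENSMUSG00000053398, chr3:98313170-98339990, minus strand, mm10), whose product commits 3-phosphoglycerate to serine, had 217, 249 and 270 CPM in the vehicle libraries and 162, 136 and 126 CPM in the AG636 libraries. The groups were far apart in comparison with the spread inside each. The mean fell from 245 ± 26.6 to 141 ± 18.8 CPM (SD, n = 3 each), a log2 fold change of -0.80 (SE 0.137, 95% confidence interval -1.10 to -0.49, edgeR adjusted p = 0.00592), which left 57.6% of the vehicle level.

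*Psat1* (ENSMUSG00000024640, chr19:15904678-15947337, minus strand), the transaminase of the second step, was the steadiest gene of the pathway within each group. Its levels were 253, 257 and 261 CPM with vehicle and 155, 150 and 140 CPM with AG636. Libraries of one group thus lay close together, and no AG636 library came near a vehicle library. The means were 257 ± 4.29 and 148 ± 7.81 CPM (SD, n = 3), with a log2 fold change of -0.80 (SE 0.107, 95% confidence interval -1.04 to -0.56, edgeR adjusted p = 0.00298). *Phgdh* and *Psat1* kept the same 57.6% of their vehicle levels.

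*Psph* (ENSMUSG00000029446, chr5:129765558-129787449, minus strand), the phosphatase that releases serine, was the least abundant of the tested genes. It had 25.3, 23.5 and 36.4 CPM with vehicle and 19.97, 20.6 and 14.5 CPM with AG636. The highest AG636 library sat just under the lowest vehicle library, and 1 vehicle library stood above the other two. The log2 fold change of -0.62 (SE 0.224, 95% confidence interval -1.12 to -0.12) did not pass over all genes (edgeR adjusted p = 0.0719), although its unadjusted p was 0.0193 in the same edgeR fit. The gene's total of 767 counts was the smallest among those tested. With the filter on low counts removed it passed (edgeR adjusted p = 0.0292), and in the 12 other settings that refit the fold change it did not. Without the filter the SE of *Psph* stayed at 0.224, and adjusted p was also smaller for *Phgdh* (edgeR, 6.98e-07 against 0.00592). At its start, *Psph* shares 452 exonic bases with *Cct6a* on the opposite strand, a chaperonin subunit gene with 13683 counts whose own level fell (log2 fold change -0.88, SE 0.132, edgeR adjusted p = 0.00408). The overlap lies at the 5′ end of *Psph*, and the library kit primes from the 3′ end. Whether reads were assigned by strand is not given in the sources used here, and the effect of the overlap on the *Psph* count was not tested.

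Both serine hydroxymethyltransferase genes fell. *Shmt1* (ENSMUSG00000020534, chr11:60788104-60811718, minus strand), the cytosolic enzyme, had 40.1, 44.6 and 58.5 CPM with vehicle and 31.6, 24.7 and 28.1 CPM with AG636. The lowest vehicle library was still above the highest AG636 library. Its mean went from 47.7 ± 9.59 to 28.2 ± 3.45 CPM (SD, n = 3), a log2 fold change of -0.76 (SE 0.185, 95% confidence interval -1.17 to -0.35, edgeR adjusted p = 0.0198). Without AG636 replicate 3 the call was lost (log2 fold change -0.76, edgeR adjusted p = 0.0659). The 3′ end of *Shmt1*, the end from which the kit primes, shares 184 exonic bases with *Smcr8* on the opposite strand. *Smcr8* had 481 counts and a log2 fold change of -0.05 (edgeR adjusted p = 0.889). The effect of this overlap on the *Shmt1* count was not tested.

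*Shmt2* (ENSMUSG00000025403, chr10:127517123-127522444, minus strand), the mitochondrial enzyme, had 217, 200 and 192 CPM with vehicle and 110, 117 and 80.2 CPM with AG636. Every AG636 library was well below every vehicle library, AG636 replicate 3 being the lowest. The mean fell from 203 ± 12.6 to 102 ± 19.4 CPM (SD, n = 3), which left 50.4% of the vehicle level (log2 fold change -0.99, SE 0.152, 95% confidence interval -1.33 to -0.65, edgeR adjusted p = 0.00411).

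The balance between the mitochondrial and the cytosolic enzyme was compared as a log2 ratio within each library, after adding 0.5 CPM to both genes. For *Shmt2* over *Shmt1* it was 2.42, 2.15 and 1.71 with vehicle and 1.78, 2.22 and 1.5 with AG636. The groups overlapped. The means of 2.09 ± 0.359 and 1.83 ± 0.364 (SD, n = 3) differed by -0.26 (two-sided exact permutation test, p = 0.5), in a design whose smallest possible p is 0.1. At this spread no change in the balance was detectable.

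The steepest falls were in the folate dehydrogenase genes. *Mthfd2* (ENSMUSG00000005667, chr6:83305691-83325908, minus strand), the mitochondrial dehydrogenase and cyclohydrolase, had 175, 144 and 169 CPM with vehicle and 67.1, 76.5 and 57.8 CPM with AG636. The groups were separated by a gap wider than the spread inside either of them. The mean fell from 163 ± 16.6 to 67.1 ± 9.37 CPM (SD, n = 3), a log2 fold change of -1.28 (SE 0.144, 95% confidence interval -1.60 to -0.96, edgeR adjusted p = 0.00202), which left 41.2% of the vehicle level. Among the 11092 genes tested its unadjusted p ranked 20 from the lowest, and its log2 fold change ranked 195 from the lowest.

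*Mthfd1* (ENSMUSG00000021048, chr12:76255298-76319803, plus strand), the cytosolic enzyme with dehydrogenase, cyclohydrolase and formyltetrahydrofolate synthetase activities, varied more. It had 221, 123 and 172 CPM with vehicle and 81.3, 88.9 and 56.6 CPM with AG636. Vehicle replicate 1 stood far above vehicle replicate 2, yet even the latter was above every AG636 library. The mean fell from 172 ± 49.2 to 75.6 ± 16.9 CPM (SD, n = 3), with a log2 fold change of -1.18 (SE 0.227, 95% confidence interval -1.69 to -0.68, edgeR adjusted p = 0.00861) and 44.0% of the vehicle level left.

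*Mthfd1l* (ENSMUSG00000040675, chr10:3973118-4167081, plus strand), the mitochondrial formyltetrahydrofolate synthetase that releases formate, had 269, 243 and 212 CPM with vehicle and 112, 169 and 115 CPM with AG636. AG636 replicate 2 was the highest of its group and remained under all vehicle libraries. The mean fell from 241 ± 28.3 to 132 ± 31.9 CPM (SD, n = 3), with a log2 fold change of -0.87 (SE 0.172, 95% confidence interval -1.25 to -0.49, edgeR adjusted p = 0.00977).

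The log2 ratio of *Mthfd2* to *Mthfd1*, again mitochondrial over cytosolic, was -0.33, 0.23 and -0.03 with vehicle and -0.28, -0.22 and 0.03 with AG636. These values overlapped, and the difference of -0.11 lay inside the spread (two-sided exact permutation test, p = 0.7, smallest possible p 0.1). Without vehicle replicate 2 the difference was 0.025.

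*Aldh1l2* (ENSMUSG00000020256, chr10:83487450-83534140, minus strand), a mitochondrial enzyme that oxidizes formyltetrahydrofolate to carbon dioxide, had 0, 2 and 3 counts with vehicle and 0, 1 and 1 counts with AG636. Every library was at or under the floor of 3 counts, so a difference was not detectable at these counts and no fold change is given. Its 3′ end also shares 1056 exonic bases with *D10Wsu102e* on the opposite strand, which had 1646 counts. Whether that overlap lowered the count of *Aldh1l2* was not tested.

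**Figure D2:**
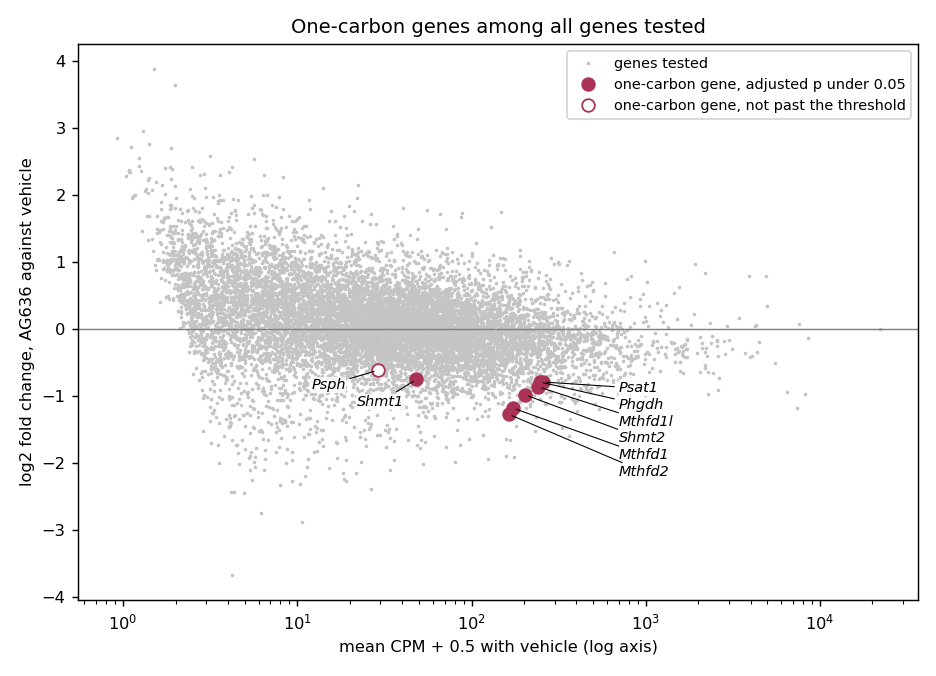
Log2 fold change (AG636 over vehicle) against mean level in the vehicle libraries (CPM + 0.5, log axis) for the 11092 genes tested (grey), with the 8 tested serine and folate genes named and drawn filled where called. The 8 lie between -1.28 and -0.62, below the median of 0.03 over all genes, and 6 of them sit among the better expressed genes at the right.

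The order of the 9 genes by level was the same in both groups, from *Psat1* through *Phgdh*, *Mthfd1l*, *Shmt2*, *Mthfd1*, *Mthfd2*, *Shmt1* and *Psph* down to *Aldh1l2*. These levels are CPM of captured transcript ends and were not divided by length. Neighbours among the first 6, *Mthfd2* included, had overlapping ranges in both groups and cannot be ordered. *Shmt1*, *Psph* and *Aldh1l2* had ranges separate from each other and from those 6. The vehicle level of *Psat1* exceeded that of 93.5% of all genes tested, that of *Shmt1* 62.0% and that of *Psph* 47.9%. Among the 5058 genes with vehicle levels from that of *Psph* to that of *Psat1*, 15.3% were called lower, and their median log2 fold change was -0.07. Summed, the 9 genes took 0.135, 0.124 and 0.135% of all counts in the vehicle libraries and 0.0751, 0.0803 and 0.0642% in the AG636 libraries.

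AG636 replicate 3 was the lowest of its group for 6 of the 8 genes. The median of the 8 genes, as log2 of the level over its vehicle mean, was -0.81, -0.82 and -1.01 in AG636 replicates 1, 2 and 3, and between -0.05 and 0.05 in the vehicle libraries. Leaving out each library in turn kept 6 or 7 genes called lower, the 6 being without AG636 replicate 3. In all 104 combinations of the 8 genes with the 13 other settings that refit the fold change, the log2 fold change was below 0.

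**Figure D3:**
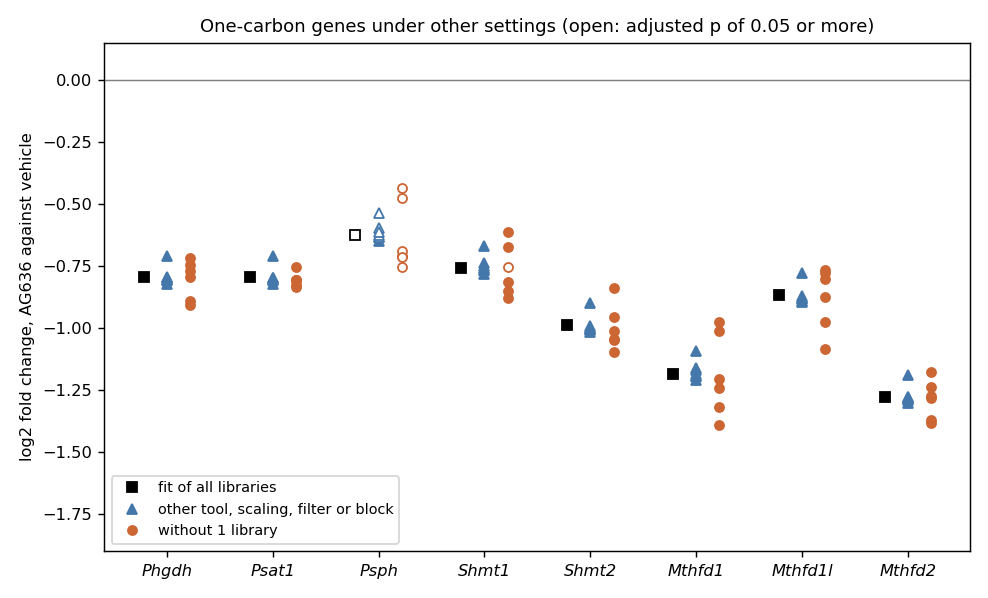
Log2 fold change (AG636 over vehicle) of each of the 8 tested genes in the analysis described here and under each of 13 other settings, which were other tests, scalings, filters, a replicate block and leaving out 1 library. All points lie below 0, and the widest ranges belong to Mthfd1, from -1.39 to -0.98, and to Psph, from -0.76 to -0.44.

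Sequence upstream of the gene starts was read for letters that transcription factors of this pathway are known to bind. ATF4, the amino acid response factor that drives serine synthesis genes in many cells, binds as a heterodimer with C/EBP proteins at TGATGNAA, and MYC binds the E-box CACGTG. Both were searched on both strands in the RefSeq promoters of build GRCm38.p6, from 250 bases before to 50 bases after each start. Of the 9 genes, 8 had a promoter there, with a pair of them for *Psat1*. Neither motif was found in any of the 8, beside 4.0% of all 32851 promoters for TGATGNAA and 7.2% for CACGTG, which says only that these letters are not in these windows. CCAAT, the letters bound by the factor NF-Y, was searched once the sequences had been read. It was present on either strand in 6 of the 8 genes (*Phgdh*, *Psat1*, *Psph*, *Shmt1*, *Mthfd1* and *Mthfd2*) and in 37.4% of all promoters. A match is a description of the letters and not evidence of binding.

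The 120 bases before the RefSeq start are printed on the strand of the gene for the pair of genes with the largest falls, for both abundant serine synthesis genes and for *Shmt2*, which had no match. *Slc7a11*, the cystine transporter gene and an ATF4 target whose level is given further on, stands last because it holds TGATGNAA. Capitals mark CCAAT, or its reverse complement ATTGG, in the first 4 sequences and TGATGNAA, or its reverse complement, in the last.
Mthfd2: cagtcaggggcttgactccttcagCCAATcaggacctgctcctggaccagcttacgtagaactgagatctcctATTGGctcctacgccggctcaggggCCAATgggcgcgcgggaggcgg
Mthfd1: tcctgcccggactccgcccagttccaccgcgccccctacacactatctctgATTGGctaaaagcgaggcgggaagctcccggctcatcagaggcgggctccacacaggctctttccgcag
Psat1: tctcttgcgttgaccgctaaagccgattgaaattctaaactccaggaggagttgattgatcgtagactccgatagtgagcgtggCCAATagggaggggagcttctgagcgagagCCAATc
Phgdh: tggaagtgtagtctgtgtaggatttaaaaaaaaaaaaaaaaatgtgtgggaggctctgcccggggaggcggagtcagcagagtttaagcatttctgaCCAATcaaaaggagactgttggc
Shmt2: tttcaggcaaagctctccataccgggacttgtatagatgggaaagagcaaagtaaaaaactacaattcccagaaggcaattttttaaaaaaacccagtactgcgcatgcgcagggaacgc
Slc7a11: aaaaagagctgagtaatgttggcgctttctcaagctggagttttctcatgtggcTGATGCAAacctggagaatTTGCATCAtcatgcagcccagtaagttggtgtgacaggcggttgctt

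The *Mthfd2* stretch (chr6:83317605-83317724, minus strand) held CCAAT 3 times, with first bases 96, 47 and 22 bases before the start. It lay inside the gene's annotated span, since the annotation also lists transcripts that start farther upstream. The *Mthfd1* stretch (chr12:76255112-76255231, plus strand) held it once, 69 bases before the start, and fell over its whole length on an exon of *Gm47525*, a long noncoding RNA gene of the opposite strand with 1 count in all libraries together. In the *Psat1* stretch (chr19:15925060-15925179, minus strand), which is the first of its pair of promoters and intronic to longer annotated transcripts, matches began 36 and 6 bases before the start. In the *Phgdh* stretch (chr3:98339970-98340089, minus strand) 1 began 23 bases before the start, and 21 of its bases were exonic in the deposited annotation. Those of *Shmt2* (chr10:127522445-127522564, minus strand) and *Slc7a11* (chr3:50443614-50443733, minus strand) lay before the genes, except for 1 exonic base of *Slc7a11*.

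Genes with the profile most like that of *Mthfd2* over the 6 libraries were found by the root-mean-square difference of log2 CPM, each profile centred on its own mean. The 5 nearest were *Ydjc* at 0.0698, *Nat10* at 0.0967, *Hspe1* at 0.112, *Mdn1* at 0.117 and *Rrp9* at 0.118. *Nat10*, *Mdn1* and *Rrp9* encode factors of ribosomal RNA processing or ribosome assembly, and *Hspe1* the mitochondrial co-chaperonin. The nearest of the pathway's own genes were *Shmt2* at rank 28 (0.174) and *Mthfd1* at rank 58 (0.196). *Mthfd1l* followed at rank 203, *Psat1* at 234, *Phgdh* at 381, *Shmt1* at 736 and *Psph* at 796.

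Of 60 genes around the pathway, in 7 lists, 45 were tested. Of these 15 fell, or 33.3% beside 11.0% of all genes tested, and 3 rose, or 6.7% beside 10.3%, and their median log2 fold change was -0.37. Among 13 genes of folate uptake, retention and reduction, 8 were tested, 2 fell and 2 rose. *Slc19a1*, the reduced folate carrier, had 101, 82.0 and 65.2 CPM with vehicle and 32.5, 43.3 and 21.0 CPM with AG636, and fell by 1.36 on the log2 scale (SE 0.25, edgeR adjusted p = 0.00723). *Fpgs*, which adds the glutamate tail that keeps folate in the cell, fell from 124 ± 37.9 to 50.2 ± 11.8 CPM (SD, n = 3), a log2 fold change of -1.31 (SE 0.235, edgeR adjusted p = 0.00678). *Ggh*, which removes that tail, moved the other way, from 20.7 ± 8.17 to 40.5 ± 5.27 CPM (SD, n = 3), a log2 fold change of 0.97 (SE 0.267, edgeR adjusted p = 0.0295). *Mthfs*, which returns 5-formyltetrahydrofolate to the active pool, rose by 0.98 (SE 0.295, edgeR adjusted p = 0.0408). With 1 library left out, *Ggh* lost its call in 4 of 6 fits, with edgeR adjusted p of 0.0565 and 0.0869 without vehicle replicates 1 and 2 and of 0.0858 and 0.0927 without AG636 replicates 1 and 3. *Mthfs* lost it in 5 of 6, with edgeR adjusted p of 0.0888 and 0.128 without vehicle replicates 1 and 2 and of 0.121, 0.063 and 0.0843 without AG636 replicates 1, 2 and 3.

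**Figure D4:**
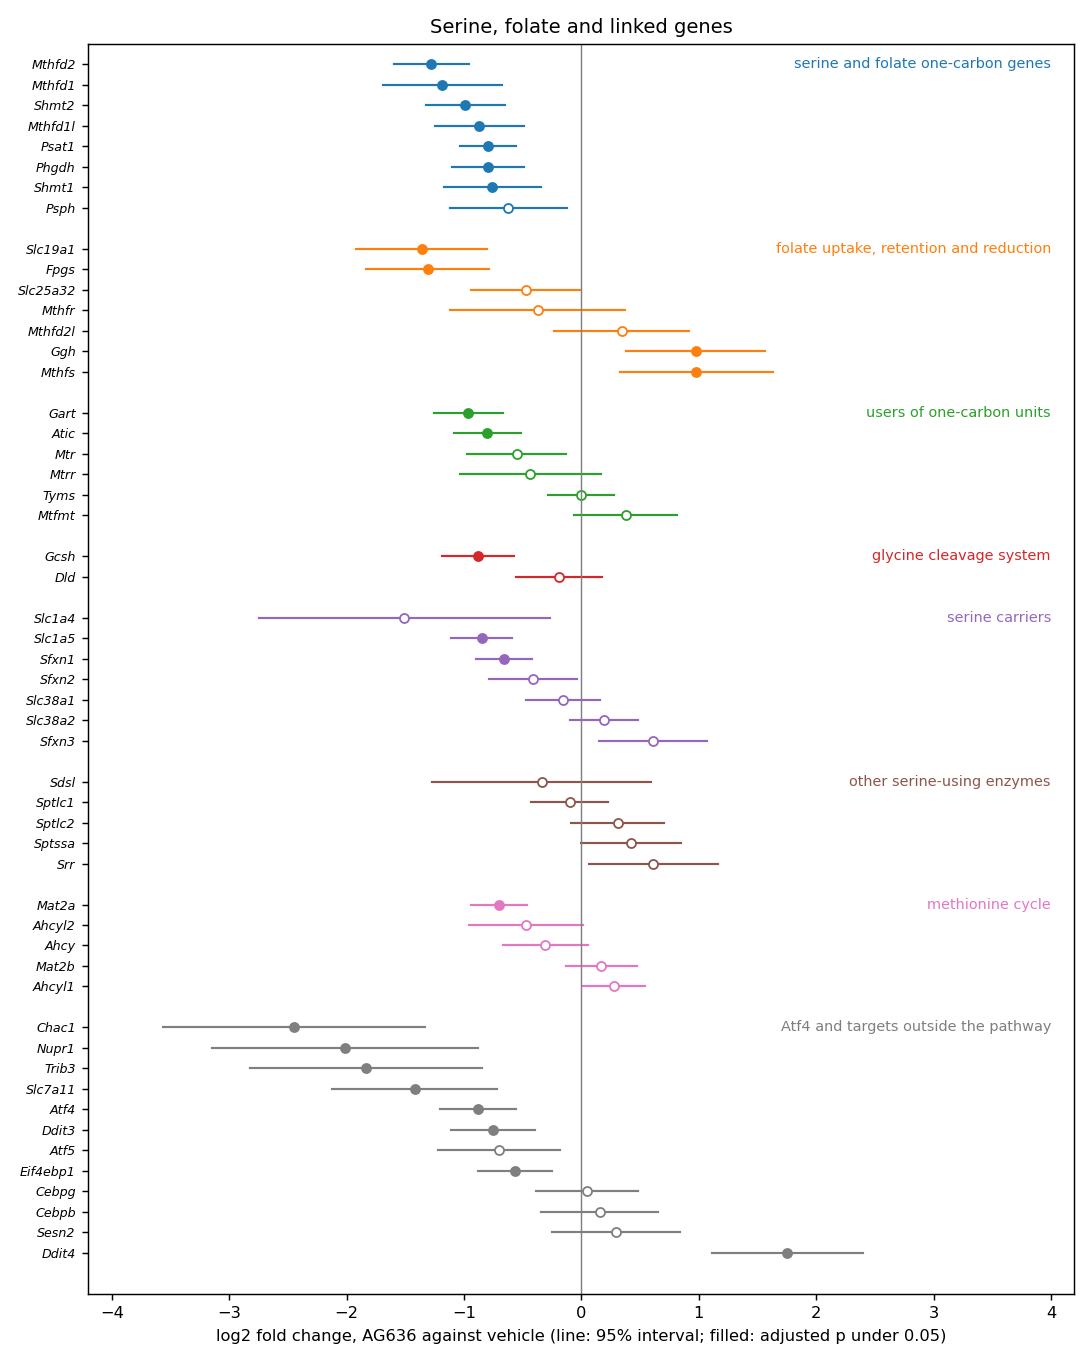
Log2 fold change (AG636 over vehicle) with its 95% confidence interval (line) for the tested genes of the serine and folate set and of 7 lists of neighbouring genes, one row per gene drawn and one colour per list, with filled points for genes called. A gene that is not reported here has no row. The 8 serine and folate genes all lie left of 0, and the other 7 lists hold 15 genes called lower and 3 called higher among 45 tested.

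Of 6 enzymes that spend one-carbon units, all tested, edgeR called 2 lower, both of purine synthesis, beside 11.0% of all genes tested. DESeq2 called 3 lower and limma-voom 2. *Gart* fell from 268 ± 30.4 to 138 ± 14.8 CPM (SD, n = 3; log2 fold change -0.96, SE 0.133, edgeR adjusted p = 0.0032) and *Atic* from 168 ± 20.9 to 96.2 ± 4.76 CPM (SD, n = 3; log2 fold change -0.80, SE 0.128, edgeR adjusted p = 0.00475). *Mtr*, methionine synthase, named after its value was seen, did not pass in edgeR (log2 fold change -0.55, SE 0.19, edgeR adjusted p = 0.0629). Its AG636 libraries all lay below its vehicle libraries, as in 20.6% of all genes tested. *Tyms*, thymidylate synthase, had 143, 140 and 157 CPM with vehicle and 166, 136 and 136 CPM with AG636, groups that overlapped (edgeR adjusted p = 0.98), and was named after its value was seen. Of the glycine cleavage system, which makes one-carbon units from glycine in mitochondria, 2 of 4 genes were tested and *Gcsh* fell from 60.3 ± 3.60 to 32.7 ± 1.65 CPM (SD, n = 3; log2 fold change -0.88, SE 0.137, edgeR adjusted p = 0.00439), while *Gldc*, the decarboxylase of that system, had 0 counts in all libraries.

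Among serine carriers, 7 of 8 genes were tested, and edgeR called 2 lower and 0 higher, beside 11.0% and 10.3% of all genes tested. DESeq2 and limma-voom each called 3 lower and 0 higher. *Sfxn1*, the mitochondrial serine transporter, went from 764 ± 46.7 to 483 ± 34.8 CPM (SD, n = 3; log2 fold change -0.66, SE 0.108, edgeR adjusted p = 0.00501), and *Slc1a5*, a neutral amino acid transporter, from 115 ± 7.0 to 64.0 ± 0.841 CPM (SD, n = 3; log2 fold change -0.85, SE 0.118, edgeR adjusted p = 0.0032). *Slc1a4*, named after its value was seen, had overlapping groups and did not pass (log2 fold change -1.51, SE 0.558, edgeR adjusted p = 0.0779). Of 8 other serine-using enzymes, 5 were tested and edgeR called 0, as did DESeq2 and limma-voom, with a median of 0.31. At an unadjusted p under 0.05 in the edgeR fit there was 1, where 37.1% of all genes tested passed. *Srr*, serine racemase, had the lowest adjusted p of these (log2 fold change 0.61, SE 0.247, edgeR adjusted p = 0.099). *Cth*, which makes cysteine from serine-derived cystathionine, did not reach the filter, with 20, 15 and 20 counts under vehicle and 6, 2 and 3 counts under AG636, and was named after these were seen. With the filter removed *Cth* was lower (log2 fold change -2.09, SE 0.579, edgeR adjusted p = 0.0039). That setting also gave smaller adjusted p to other genes, for *Slc1a5* 1.37e-06 against 0.0032 (edgeR), so the call of *Cth* rests on that fit alone. In the methionine cycle 1 of 5 tested genes was called, beside 21.3% of all genes tested in either direction. It was *Mat2a*, the S-adenosylmethionine synthetase subunit, which fell from 750 ± 37.6 to 461 ± 34.2 CPM (SD, n = 3; log2 fold change -0.70, SE 0.107, edgeR adjusted p = 0.00411).

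Among *Atf4* and its known targets outside the pathway, 7 of 12 tested genes fell and 1 rose, with a median of -0.73. Over all genes tested, 11.0% fell and 10.3% rose. The 4 genes not called were *Atf5* at -0.70, *Sesn2* at 0.295, *Cebpb* at 0.155 and *Cebpg* at 0.046 (log2 fold changes). *Atf4* itself fell from 376 ± 18.6 to 204 ± 39.0 CPM (SD, n = 3; log2 fold change -0.88, SE 0.145, edgeR adjusted p = 0.00517). *Slc7a11*, whose upstream sequence is shown above, fell by 1.42 on the log2 scale (SE 0.316, edgeR adjusted p = 0.0142). The other genes called lower were *Ddit3* at -0.76, *Chac1* at -2.45, *Trib3* at -1.84, *Nupr1* at -2.02 and *Eif4ebp1* at -0.57 (log2 fold changes). Without AG636 replicate 3 the calls of *Slc7a11*, *Chac1*, *Trib3*, *Nupr1* and *Eif4ebp1* were lost, with edgeR adjusted p of 0.0614, 0.0505, 0.0638, 0.0581 and 0.0839. Without AG636 replicate 1 those of *Trib3*, *Nupr1* and *Eif4ebp1* were lost (edgeR adjusted p of 0.0688, 0.0562 and 0.0729). *Nupr1* and *Eif4ebp1* also lost theirs without vehicle replicate 1 (0.0672 and 0.0579) or vehicle replicate 2 (0.0576 and 0.0511), and *Atf4* and *Ddit3* kept their calls in all 6 fits. *Ddit4*, an inhibitor of mTORC1 signalling, rose from 20.6 ± 9.15 to 69.2 ± 10.6 CPM (SD, n = 3; log2 fold change 1.75, SE 0.289, edgeR adjusted p = 0.00521). *Asns*, asparagine synthetase, had 5, 5 and 6 counts with vehicle and 1, 5 and 7 counts with AG636 and was not tested. TGATGNAA was present in the promoters of 5 of the 13 genes of this list that have one, *Asns*, *Chac1*, *Trib3*, *Slc7a11* and *Nupr1*, beside 4.0% of all promoters. The match of *Trib3* began 14 bases after the start. The list was drawn up from known ATF4 targets, so this share is not independent evidence about ATF4.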

How the data were processed

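The authors deposited raw read counts per gene for 6 libraries of sorted I1DN cells. Per the study's methods and the submitters' processing notes, 3′ libraries were trimmed with cutadapt 1.9.1, mapped to mm10 with HISAT2 2.0.4 and counted with featureCounts of Subread 1.5.0-p3, and the annotation release and strand setting are not given in the sources used here. The deposited table also gives a gene length, in bases and of unit other, which entered no test. The groups were compared with edgeR 4.0.16 in R 4.3.3 (TMM scaling, filterByExpr set to min.count 10 and min.total.count 15, quasi-likelihood test on group, Benjamini-Hochberg adjustment over 11092 genes). The scripts were tested on simulated data. Limma-voom (limma 3.58.1), DESeq2 1.42.0, other scalings, filters, pseudocounts, a replicate block and leaving out each library were alternatives. Totals of 4634963 to 7906589 counts per library gave a median SE of 0.195 on the log2 scale, and floors cover counting error only.

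Members and lists were chosen with earlier results of these data known. All 9 serine and folate genes were named, then every called gene of each neighbouring list, or its gene with the lowest adjusted p where none was called, and the 5 profiles nearest to the called gene with the largest change. CCAAT was added as a motif after the sequences were read. Motifs were searched in RefSeq promoters, and symbols came from GENCODE. Chi-square statistics over genes, from 6.67 to 15.9 per degree of freedom between libraries of a group, showed no duplicate library. In the list of folate uptake, retention and reduction, 1 gene enters the counts and the median but is not reported here.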

Additional observations from a re-analysis of the deposited data

How the results depend on the processing

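Under the 14 alternatives to each count, 6 to 8 serine and folate genes were called lower and 0 higher. Psph passed only without the filter on low counts, and Shmt1 lost its call without AG636 replicate 3. At an adjusted p under 0.01, 6 remained. Of 104 fold changes refitted, 102 kept direction and side of the threshold. Over all genes, 1222 fell and 1146 rose, and at an adjusted p under 0.01 these counts were 325 and 231. Without 1 library they ranged from 452 to 1298 and from 399 to 1074, fewest without AG636 replicate 3 (452 and 399); without AG636 replicate 1 they were 630 and 605, without vehicle replicate 1 701 and 524, and without vehicle replicate 2 692 and 500. These fits hold fewer samples. Of the neighbouring genes, 10 fell and 1 rose without AG636 replicate 3, against 15 and 3.

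The Shmt2 to Shmt1 difference ranged from -0.46 to -0.10 without 1 library (-0.26 with all), and the Mthfd2 to Mthfd1 difference from -0.26 to 0.025, where 0.025 came without vehicle replicate 2 (-0.11 with all). The cause was not tested.

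Same-numbered libraries of the groups share only a number, with correlations of their deviations of -0.06, -0.18 and 0.23, and not every library correlated best with its own number. With the replicate block, 1046 genes fell and 914 rose, 7 serine and folate genes were lower, and the ratio differences were -0.26 and -0.11. Among neighbouring genes the block ended the call of Mthfs, and 16 fell and 2 rose.

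Low counts limit Aldh1l2 and Asns, which without the filter had SEs of 1.46 and 0.774 on the log2 scale (edgeR adjusted p = 0.692 and 0.963). Cth passed without the filter (edgeR adjusted p = 0.0039), a setting that also gave smaller adjusted p to other genes, such as Slc1a5 (1.37e-06 against 0.0032).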
